A study of Mus musculus with 6 samples.

Results

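Monocyte and resident macrophage identity genes are 10 genes by which mononuclear phagocytes are commonly recognized: Csf1r, Adgre1, Cx3cr1, Itgam, Ly6c2, Mrc1, Cd163, Folr2, Siglec1 and Arg1. They were taken by gene name from the deposited count table, where all 10 were found among 24797 genes, and all 10 passed the filter on low counts. The table covers tumors of the mouse colon induced with azoxymethane, a carcinogen, and dextran sulfate sodium, which injures the epithelium and causes colitis. One group, GRwt, carried the wildtype glucocorticoid receptor, and the other, GRdim, a receptor deficient in dimerization, with 3 libraries of polyadenylated RNA in each. Both groups received the carcinogen and the colitis agent, so untreated colon and normal mucosa are outside the comparison. The labels used here give no age, sex, strain background or number of tumors per mouse, and do not say whether the libraries of a group came from separate animals, so p-values measure the spread between these libraries, which may be technical.

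Macrophages of the gut wall are renewed largely from blood monocytes that enter as Ly6C-high cells, lose Ly6C and gain the fractalkine receptor, scavenger receptors and dependence on the Csf1 receptor. A smaller set of long-lived cells lies along vessels, nerves and muscle and is known for Lyve1, Cd163, Folr2 and the mannose receptor. Glucocorticoids are known to shift macrophages towards a scavenging, tissue-repairing state, and Cd163 is a classic glucocorticoid-induced gene of human monocytes. None of the 10 genes is exclusive to macrophages: Itgam is also carried by neutrophils, Adgre1 by eosinophils, Mrc1 by some endothelial cells, and Arg1 by several kinds of tumor and stromal cell. In bulk tumor RNA, fewer cells of a type and less RNA per cell cannot be told apart.

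Library totals ran from 21132981 counts in GRwt replicate 2 to 36222351 in GRwt replicate 3. Epithelial markers were the most abundant of the cell type lists, with a summed level of 10535 to 16056 CPM (counts scaled to library size), and no marker of that list was at 0. The libraries differed within each genotype. The libraries whose names hold a T, which are GRwt replicate 3 and GRdim replicate 1, had 2.51% and 2.05% of their counts on the ribosomal gene Rn18s-rs5, against at most 0.0725% elsewhere. GRdim replicate 2 held 9 counts of Xist, which the other 5 libraries had at 12225 or more. The Y chromosome gene Ddx3y was at 2101 counts in GRdim replicate 2 and at 0 to 15 in the other 5. By these 2 genes GRdim replicate 2 was male and the other 5 libraries were female. The part of sex in the gene levels was not tested. Smooth muscle, fibroblast and adipocyte markers were high in GRdim replicates 1 and 3 and low in GRdim replicate 2. The library names of GRdim replicates 1 and 3 share a number, and whether they came from 1 mouse is not stated.

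Sequences of 2 kinds bear on what was counted and what the genes share. The first kind is the coding sequence of Ly6c2 beside that of Ly6c1, its neighbor on chromosome 15, because reads of the pair can be confused. Both coding sequences are 393 bases long and differ at 9 positions, an identity of 97.7%, in GENCODE M21 on GRCm38 (Ly6c1, chr15:75045405-75048511, and Ly6c2, chr15:75108546-75111667, both on the minus strand and including introns). Their first 150 coding bases hold 6 of the differences, in capitals:
Ly6c1: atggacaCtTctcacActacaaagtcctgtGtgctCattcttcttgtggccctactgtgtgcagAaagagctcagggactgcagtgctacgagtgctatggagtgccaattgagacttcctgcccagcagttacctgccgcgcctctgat
Ly6c2: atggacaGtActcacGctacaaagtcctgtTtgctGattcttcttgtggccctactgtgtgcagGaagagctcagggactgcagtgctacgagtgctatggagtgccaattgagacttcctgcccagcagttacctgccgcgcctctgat
Of all stretches of 50 bases in the 822-base Ly6c2 transcript, 32.6% occur unchanged in the 844-base Ly6c1 transcript, so the division of reads between the pair is uncertain.

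The other 2 sequences are promoters of Mrc1 and Cd163, the pair of scavenger receptor genes whose levels followed each other most closely after the pairs formed by Csf1r with Adgre1 and Cx3cr1. RefSeq promoter windows (GRCm38.p6, 250 bases before to 50 after the start) were matched for 6 of the 10 genes: Mrc1, Cd163, Cx3cr1, Folr2, Ly6c2 and Itgam. Both strands were searched for the glucocorticoid receptor palindrome (AGAACA, 3 bases of any kind, then TGTTCT), for its single arm AGAACA, which the palindrome contains, and for the core GAGGAA bound by PU.1, the macrophage lineage factor. Capitals mark matches, which in Mrc1 (chr2:14229164-14229463, plus strand) are 3 PU.1 cores and in Cd163 (chr6:124304401-124304700, plus strand) 2 single arms:
Mrc1: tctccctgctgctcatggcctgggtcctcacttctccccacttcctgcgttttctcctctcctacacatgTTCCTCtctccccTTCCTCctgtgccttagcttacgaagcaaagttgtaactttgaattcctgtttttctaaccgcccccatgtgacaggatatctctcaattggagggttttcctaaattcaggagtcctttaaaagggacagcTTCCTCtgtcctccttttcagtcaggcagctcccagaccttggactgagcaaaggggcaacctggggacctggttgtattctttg
Cd163: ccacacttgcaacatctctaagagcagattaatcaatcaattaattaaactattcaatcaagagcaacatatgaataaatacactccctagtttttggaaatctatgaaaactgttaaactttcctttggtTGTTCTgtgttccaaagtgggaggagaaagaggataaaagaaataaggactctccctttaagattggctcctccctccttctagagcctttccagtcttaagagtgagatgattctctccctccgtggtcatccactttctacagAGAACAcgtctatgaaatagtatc
The PU.1 core occurred in 28.3% of the 32851 windows in the table and the single arm in 18.97%, while the palindrome occurred in 3 windows. Itgam had 3 cores and each of the 2 Ly6c2 windows 2, and 1 of the 2 Folr2 windows had a single arm. None of the 3 motifs was found in the Cx3cr1 window or the first Folr2 window, and the palindrome was in none of the windows of these 6 genes. A match is a stretch of letters and not a shown binding site.

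None of the 10 genes passed the test between genotypes. With edgeR's quasi-likelihood test 0 of the 10 had an adjusted p under 0.05 over the 18756 genes tested, and the background was the same, with 0 genes called (0%). At an unadjusted p under 0.05 the test took 541 genes (2.88%) and 0 of the 10, although Arg1 passed this unadjusted threshold under some other settings, given with its values. DESeq2 called 33 genes at the adjusted threshold and limma-voom 0, none of them among the 10. In GRdim relative to GRwt 6 of the genes had a log2 fold change above 0, as had 50.6% of all genes tested, and 4 had one below 0, as had 49.4%. Their median log2 fold change was 0.22, against 0.00402 over all genes tested. Only Ly6c2 of the 10 had genotypes that did not overlap. Non-overlap was met by 6.55% of all genes tested, and with GRdim higher by 2.98%.

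**Figure D1:**
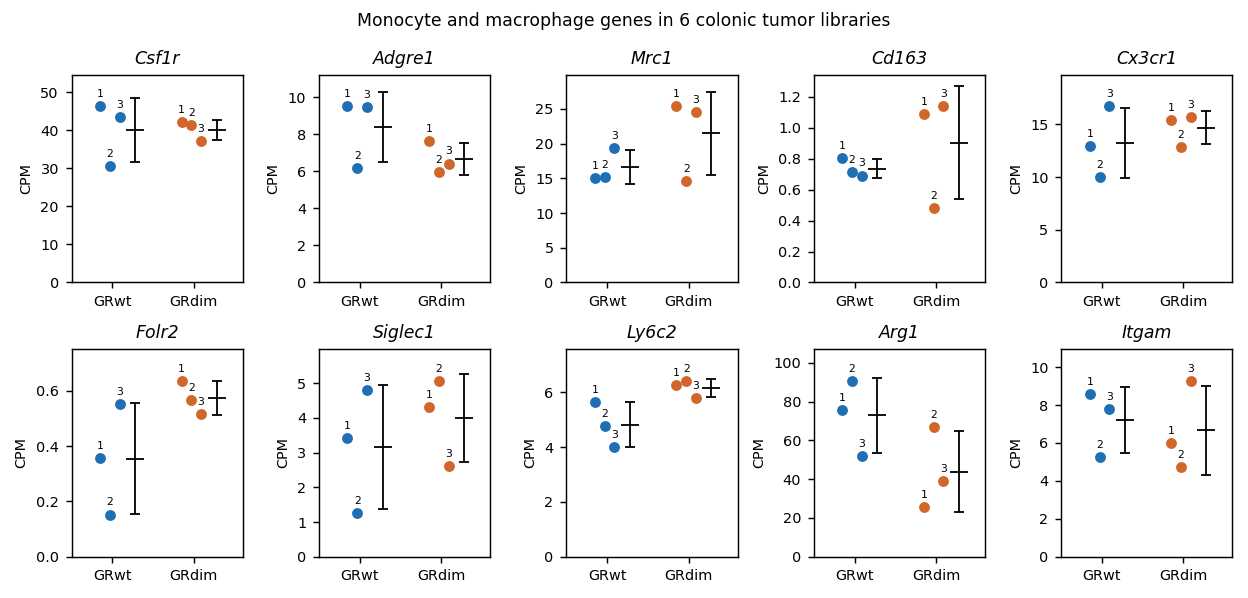
Level of each gene in CPM (y axis, linear, from 0) in the 3 GRwt and 3 GRdim libraries; points carry the replicate number, and the bar beside them is the mean with its SD (n = 3). The genotypes overlap for 9 genes, and for Ly6c2 the lowest GRdim library, 5.803, lies above the highest GRwt library, 5.65.

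Csf1r, the receptor for colony-stimulating factor 1 and interleukin-34 on which macrophages depend (chromosome 18, 61233670 to 61265221, plus strand, GRCm39 as for all gene positions here), stood at 46.3, 30.5 and 43.5 CPM in GRwt replicates 1, 2 and 3 and at 42.0, 41.2 and 37.2 CPM in GRdim replicates 1, 2 and 3. GRwt replicate 2 was the lowest library and GRwt replicate 1 the highest, with all 3 GRdim libraries between them. The means were 40.1 ± 8.42 and 40.1 ± 2.60 CPM (SD, n = 3), and the 95% interval of the fold change, GRdim over GRwt, ran from 0.731 to 1.37. Of its ligands, Csf1 stood at 42.0 ± 11.3 against 41.2 ± 5.41 CPM and Il34 at 15.6 ± 3.21 against 15.1 ± 4.04 CPM. A list of 7 tested genes that adds Csf2 and its receptor chains Csf2ra, Csf2rb and Csf2rb2, which belong to another colony-stimulating factor, had 2 higher, Csf2rb and Csf2rb2, and 5 lower, with 0 at an unadjusted p under 0.05.

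Adgre1 encodes F4/80, the adhesion receptor long used to mark mouse macrophages (chromosome 17, 57665691 to 57790527, plus strand). It stood at 9.52, 6.205 and 9.48 CPM in GRwt and at 7.64, 5.98 and 6.43 CPM in GRdim. GRwt replicates 1 and 3 were above every GRdim library, and GRwt replicate 2 lay among them. The log2 fold change was -0.33 with a standard error of 0.27 (unadjusted p = 0.255 in edgeR), and the fold interval ran from 0.515 to 1.22. The eosinophil marker Siglecf, at 7 to 33 counts per library, was at 0.356 to 0.476 CPM in GRwt and 0.477 to 0.935 CPM in GRdim. Its lowest GRdim library, replicate 3, was almost level with its highest GRwt library, replicate 1. Of the 9 eosinophil markers listed, 5 were in the table and 3 were tested, 2 higher and 1 lower in GRdim. The lower one, Alox15, was far more abundant, at 115 ± 37.2 against 110 ± 18.8 CPM (SD, n = 3). The part of eosinophils in the Adgre1 level was not tested.

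Cx3cr1, the fractalkine receptor of tissue macrophages and patrolling monocytes (chromosome 9, 119730682 to 119898945, minus strand), stood at 12.97, 10.02 and 16.7 CPM in GRwt and at 15.4, 12.9 and 15.7 CPM in GRdim. Again the lowest library was GRwt replicate 2, and here GRwt replicate 3 was the highest. The log2 fold change was 0.15 with a standard error of 0.25. Its ligand Cx3cl1 varied less, between 27.1 and 35.9 CPM, with a log2 fold change of 0.095 and a standard error of 0.18.

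Itgam encodes CD11b, the alpha chain of the complement receptor Mac-1 on monocytes, macrophages and neutrophils (chromosome 7, 127661812 to 127717663, plus strand). Levels were 8.600, 5.24 and 7.795 CPM in GRwt and 5.99, 4.73 and 9.29 CPM in GRdim. The highest and the lowest library were both GRdim, replicates 3 and 2. The log2 fold change was -0.12 with a standard error of 0.34. Its beta chain Itgb2 had 0.049 with a standard error of 0.26. Among markers of neutrophils, which also carry CD11b, 12 of 13 tested genes were lower in GRdim, and the median log2 fold change was -1.42. Of these, 7 had an edgeR unadjusted p under 0.05 and 7 had no overlap between genotypes. Over all genes tested, 2.88% had such a p in either direction, and 3.57% had no overlap with GRdim lower. That list was summed at 213 to 349 CPM in GRwt and 149.9 to 206 CPM in GRdim, with no marker at 0 in every library. The largest part of the sum was Ly6g, at 165, 266 and 98.0 CPM in GRwt and 95.8, 120 and 170 CPM in GRdim. Genotypes overlapped for Ly6g (unadjusted p = 0.239 in edgeR). S100a8, a calcium-binding protein of neutrophils, had the smallest p of that list and a log2 fold change of -1.94. Over the 6 libraries S100a8 averaged 7.71 CPM, against 152 CPM for Ly6g, and the cell source of Ly6g was not tested. The part of neutrophils in the Itgam level was not tested.

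Ly6c2, one of the genes for Ly6C, the surface protein of newly arrived monocytes (chromosome 15, 74980007 to 74983819, minus strand), stood at 5.65, 4.78 and 4.01 CPM in GRwt and at 6.25, 6.43 and 5.803 CPM in GRdim. Each GRdim library was above each GRwt library, by a small margin between GRdim replicate 3 and GRwt replicate 1. The means, 4.81 ± 0.823 and 6.16 ± 0.324 CPM (SD, n = 3), gave a log2 fold change of 0.36 with a standard error of 0.27. An exact two-sided permutation test of the 3 libraries against 3 gave p = 0.1, the smallest that it can give. In edgeR the gene did not pass (unadjusted p = 0.219).

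Its near-copy Ly6c1, which is abundant on endothelium, was higher in counts and did not separate the genotypes, at 41.0, 42.4 and 18.9 CPM in GRwt and 22.2, 24.5 and 44.6 CPM in GRdim. Ly6c2 took 12.1%, 10.1% and 17.5% of the counts of the pair in the GRwt libraries and 21.97%, 20.8% and 11.5% in the GRdim libraries, each in order of replicate. The share was high in GRwt replicate 3 and GRdim replicates 1 and 2 and low in the other 3 libraries, so the genotypes overlapped in share although they did not overlap in the level of Ly6c2. Exact 95% intervals, which cover counting error only, separated the high from the low libraries: the lowest bound among the high ones was 15.0006% and the highest among the low ones 13.8%. Of the 9 endothelial markers, Ly6c1 among them, 6 were higher and 3 lower in GRdim. Cldn5 and Vwf had no overlap between genotypes, which with GRdim higher was met by 2.98% of all genes tested. Cldn5 stood at 1.91 to 3.45 CPM in GRwt and at 5.24, 4.85 and 17.3 CPM in GRdim. Vwf stood at 14.0 to 16.1 CPM in GRwt and at 32.6, 16.7 and 43.4 CPM in GRdim.

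**Figure D2:**
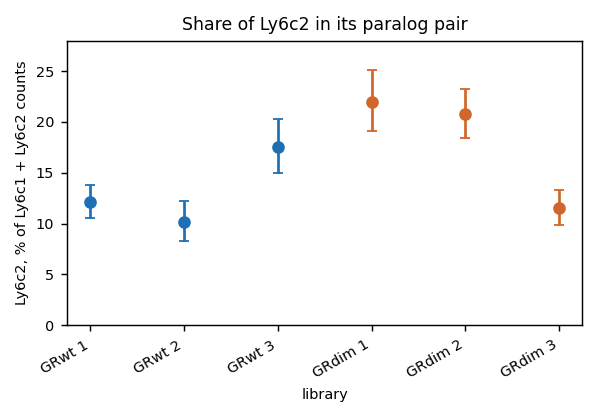
Counts of Ly6c2 as a percentage of Ly6c1 and Ly6c2 counts together (y axis) in each library (x axis, genotype and replicate), with exact 95% intervals of counting error. GRdim replicate 3, at 11.5%, sits with GRwt replicates 1 and 2, and GRwt replicate 3, at 17.5%, with the other GRdim libraries.

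Other genes of classical monocytes did not follow Ly6c2 as a list. Of 13 tested, 7 were higher and 6 lower in GRdim, with a median log2 fold change of 0.11. Hp, the gene of haptoglobin, had the smallest p of the list and stood at 24.1, 5.24 and 11.3 CPM in GRwt and 7.94, 1.42 and 4.33 CPM in GRdim (unadjusted p = 0.0467 in edgeR). F13a1, the coagulation factor XIII chain of monocytes and resident macrophages, stood at 12.6 to 16.2 CPM in GRwt and at 14.2, 4.34 and 4.15 CPM in GRdim, so GRdim replicate 1 lay with the GRwt libraries. Ccl2, the ligand of the monocyte receptor Ccr2, stood at 4.59 ± 0.489 against 3.06 ± 1.15 CPM (SD, n = 3). These 3 genes are among the 6 lower ones. Ifi204, the next by p, was higher in GRdim, at 4.48 ± 0.448 against 5.30 ± 0.749 CPM. The 10 genes of nonclassical monocytes had 6 higher and 4 lower, with Itgax, the CD11c integrin chain, at 14.4 to 20.6 CPM in GRwt and 20.7 to 21.6 CPM in GRdim.

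Mrc1, the mannose receptor CD206 that takes up glycoproteins and microbes (chromosome 2, 14234203 to 14336868, plus strand), stood at 15.1, 15.3 and 19.4 CPM in GRwt and at 25.4, 14.6 and 24.5 CPM in GRdim. Cd163, the receptor that clears hemoglobin bound to haptoglobin (chromosome 6, 124281615 to 124307486, plus strand), stood at 0.803, 0.712 and 0.691 CPM in GRwt and at 1.09, 0.482 and 1.14 CPM in GRdim. In both genes GRdim replicates 1 and 3 were the highest libraries and GRdim replicate 2 the lowest of all 6, so the GRdim group held both ends of the range. The log2 fold changes were 0.37 with a standard error of 0.26 for Mrc1 and 0.28 with 0.49 for Cd163. Cd163 rests on 14 to 31 counts per library, and its fold interval ran from 0.561 to 2.65. Both estimates turned on which GRdim libraries were used. The log2 fold change of Mrc1 was 0.24, 0.59 and 0.26 without GRdim replicate 1, 2 and 3, and that of Cd163 was 0.13, 0.59 and 0.074. The values of 0.59 rest on GRdim replicates 1 and 3 alone, whose library names share a number (for Mrc1 edgeR unadjusted p = 0.0308, adjusted p = 0.9999). With these 2 libraries summed as 1 sample the values were 0.24 for Mrc1 and 0.11 for Cd163.

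Lyve1, the hyaluronan receptor of perivascular macrophages and lymphatic vessels, ranked the libraries as Mrc1 did, at 7.201, 7.37 and 8.37 CPM in GRwt and 15.7, 5.07 and 15.3 CPM in GRdim. The resident macrophage list had 12 of 18 tested genes higher and 6 lower in GRdim, with a median log2 fold change of 0.16, and Lyve1 had the smallest p of those with a mean of at least 1 CPM. The smallest p of the whole list was that of Clec10a, a galactose-binding lectin, named here after its values were seen. Clec10a stood at 0.458 to 0.746 CPM in GRwt and 0.878 to 1.47 CPM in GRdim, with no overlap (unadjusted p = 0.0811 in edgeR). Of all genes tested, 2.98% had no overlap with GRdim higher. Markers of the tumor's surrounding tissue were also high in GRdim replicates 1 and 3. Smooth muscle markers were higher in GRdim in 8 of 8 cases and summed to 1201 to 1381 CPM in GRwt and 1147 to 6158 CPM in GRdim. Fibroblast markers were higher in 7 of 8 cases and summed to 1556 to 2210 CPM in GRwt and 986 to 2455 CPM in GRdim. In both lists GRdim replicate 2 was the lowest of the 6 libraries by mean log2 level, and no marker was at 0. The part of surrounding tissue in the levels of Mrc1 and Cd163 was not tested.

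**Figure D3:**
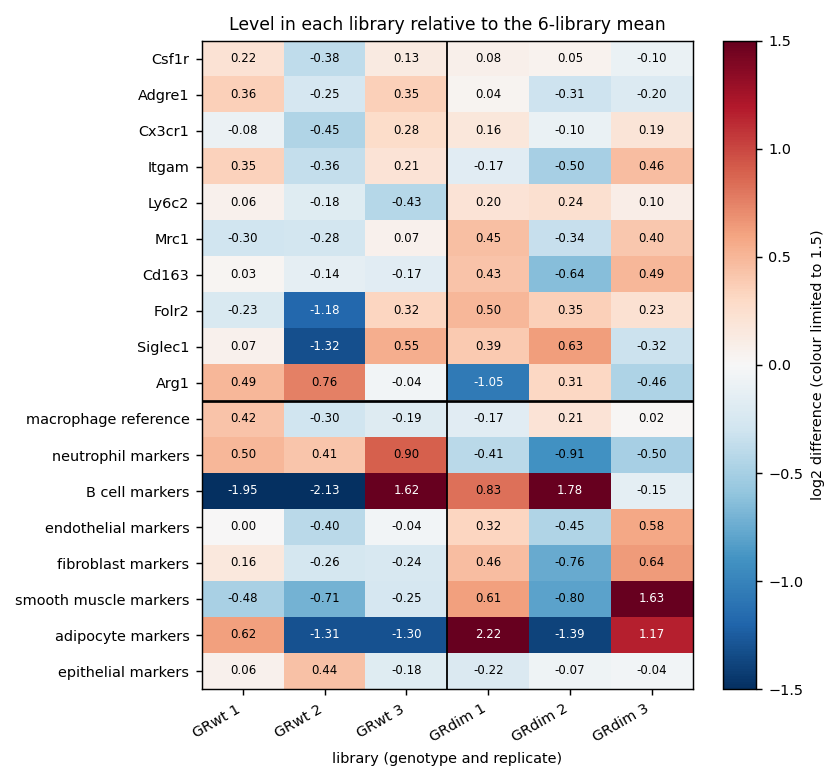
Mean-centred log2 level (numbers and colour, log2 units) of the 10 genes, above the line, and of 8 marker lists, below it, in each library (x axis). Cd163 ranges from -0.64 in GRdim replicate 2 to 0.49 in GRdim replicate 3, and fibroblast markers from -0.76 to 0.64 in the same libraries.

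Folr2, folate receptor beta of resident macrophages (chromosome 7, 101489195 to 101506401, minus strand), was counted rarely, with 12, 3 and 20 counts in GRwt and 17, 20 and 14 counts in GRdim. In CPM it stood at 0.357, 0.153 and 0.553 in GRwt and at 0.636, 0.567 and 0.514 in GRdim. The 3 counts of GRwt replicate 2 have an exact 95% interval of 0.619 to 8.77 counts. The log2 fold change of 0.64 had the largest standard error of the 10, 0.57, and was 0.33 without GRwt replicate 2 and 1.08 without GRwt replicate 3. The 3 tested genes of folate uptake had positive fold changes; Slc46a1, the proton-coupled folate transporter, owed its mean to GRdim replicate 3, at 57.2 CPM against 25.2 to 31.4 CPM in the other 5 libraries.

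Siglec1, or CD169, is a sialic acid receptor of macrophages in lymphoid tissue and is induced by interferon (chromosome 2, 130911140 to 130928685, minus strand). Its levels were 3.42, 1.27 and 4.81 CPM in GRwt and 4.31, 5.07 and 2.61 CPM in GRdim. The spread within GRwt, nearly from the lowest to the highest of all libraries, was larger than the difference between the means, 3.17 ± 1.78 and 3.995 ± 1.26 CPM (SD, n = 3). Without GRwt replicate 2 the log2 fold change went from 0.32 to -0.043. The 3 libraries highest in Siglec1, GRdim replicate 2, GRwt replicate 3 and GRdim replicate 1, also ranked highest by the mean log2 level of B cell markers. Those markers were higher in GRdim in 8 of 8 cases and summed to 12.8 to 150.3 CPM in GRwt and 42.9 to 169 CPM in GRdim, with no marker at 0. Their part in the Siglec1 level was not tested.

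Arg1, arginase 1, splits arginine into ornithine and urea and is the best known enzyme of alternatively activated and tumor-associated macrophages (chromosome 10, 24791119 to 24803382, minus strand). It stood at 75.6, 90.8 and 52.1 CPM in GRwt and at 25.8, 66.6 and 39.04 CPM in GRdim. GRdim replicate 2 lay above GRwt replicate 3, and the other 2 GRdim libraries lay below all GRwt libraries. The means were 72.9 ± 19.5 and 43.8 ± 20.8 CPM (SD, n = 3). The log2 fold change of -0.73 with a standard error of 0.35 had the smallest unadjusted p of the 10 genes in edgeR, 0.067, and its fold interval ran from 0.347 to 1.05. Leaving out GRdim replicate 2 gave -1.17 (edgeR unadjusted p = 0.00706, adjusted p = 0.74) and leaving out GRdim replicate 1 gave -0.47 (unadjusted p = 0.161). The unadjusted p was 0.0432 in DESeq2 and 0.0491 in limma-voom. In edgeR it was 0.00987 with the T of the library names as a covariate, 0.0297 with the replicate number as a block, 0.048 in the 4 libraries with no T and 0.0317 without GRwt replicate 3. Above 0.05, the edgeR unadjusted p was 0.062 with relative log expression size factors and 0.063 with no filter on low counts. It was 0.138 with GRdim replicates 1 and 3 summed. It was 0.128, 0.218 and 0.15 without GRwt replicate 1, GRwt replicate 2 and GRdim replicate 3. The lowest adjusted p of all these settings was the 0.74 above.

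Among 13 genes of arginine metabolism 2 were higher and 11 lower in GRdim, with a median log2 fold change of -0.22. Nos2, the inducible nitric oxide synthase that competes for arginine, stood at 59.8, 87.3 and 35.8 CPM in GRwt and at 36.7, 33.6 and 22.9 CPM in GRdim (unadjusted p = 0.0164 in edgeR). GRwt replicate 2 was the highest library for both enzymes. The ratio of Arg1 to Nos2 in CPM ran from 1.04 to 1.45 in GRwt and from 0.703 in GRdim replicate 1 to 1.99 in GRdim replicate 2, so GRdim took in the whole GRwt range. Slc7a2, an arginine transporter, had the opposite sign, at 1.07 to 1.58 CPM in GRwt and 2.43, 1.64 and 6.32 CPM in GRdim. Its mean in GRdim owed most to replicate 3, and GRdim replicate 2 lay just above the highest GRwt library. The mitochondrial isoenzyme Arg2 had a log2 fold change of 0.059 with a standard error of 0.25. Of 13 tested genes of alternative activation, a list that holds Arg1 and Mrc1, 9 were higher and 4 lower. Ccl17, a chemokine of this state, stood at 1.39 ± 0.539 against 2.24 ± 0.499 CPM and Il4ra, the interleukin-4 receptor chain, at 80.01 ± 8.42 against 72.1 ± 5.12 CPM.

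**Figure D4:**
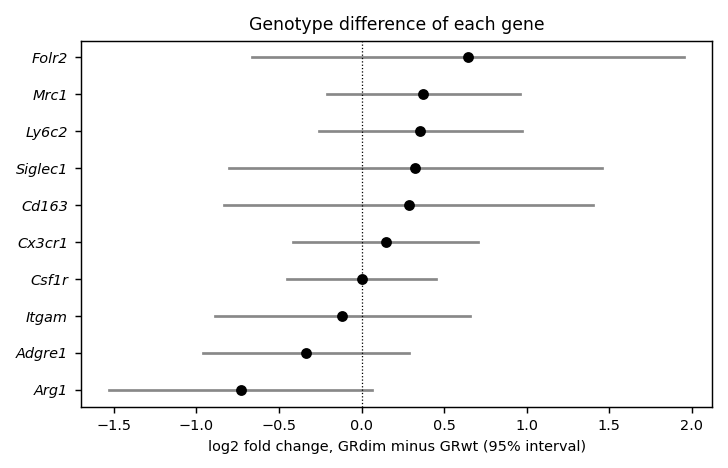
Log2 fold change, GRdim minus GRwt (x axis), of each gene (y axis) from the edgeR fit over all genes; points are estimates and lines their 95% intervals. All 10 intervals include 0, and that of Arg1 reaches 0.064 above it.

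The genes differed widely in abundance. Per kilobase of the longest coding transcript in GENCODE M21, over the 6 libraries, Arg1 stood highest at 39.5 ± 16.3 CPM per kilobase, followed by Csf1r at 8.53 ± 1.19 and Ly6c2 at 6.68 ± 1.13. Mrc1 stood at 3.54 ± 0.912, Cx3cr1 at 3.11 ± 0.550, Adgre1 at 2.33 ± 0.501 and Itgam at 1.48 ± 0.402 CPM per kilobase. The lowest were Siglec1 at 0.561 ± 0.228, Folr2 at 0.385 ± 0.148 and Cd163 at 0.184 ± 0.0565 CPM per kilobase. Of neighbors in this order, Mrc1 and Cx3cr1 could not be separated, since Mrc1 was the higher in 3 of 6 libraries. Ranges also overlapped between Csf1r and Ly6c2, Cx3cr1 and Adgre1, Adgre1 and Itgam, Siglec1 and Folr2, and Folr2 and Cd163. The place of Ly6c2 rests on a length of 822 bases: with all annotated exons, 2740 bases that include a retained intron, it stood at 2.003 CPM per kilobase and ranked 6 of 10 instead of 3.

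The genes also differed in how they ranked the libraries. Likeness was measured as the root mean square distance between mean-centred log2 levels over the 6 libraries, which over the 45 pairs ran from 0.19 to 1.10 with a median of 0.45. Csf1r was closest to Adgre1 and Cx3cr1, at 0.19 and 0.20, and Mrc1 to Cd163, at 0.22. Folr2 and Siglec1 were 0.30 apart, sharing their lowest value in GRwt replicate 2. Arg1 stood apart, at 0.81 from Cx3cr1 and over 1 from Siglec1 and Folr2, with 1.08 and 1.10. GRwt replicate 2 was the lowest library for 4 of the 10 genes and GRdim replicate 2 for another 4, while of all genes tested these libraries were the lowest for 15.4% and 13.7%.

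Over all tested genes with a mean of at least 1 CPM, the nearest patterns were not always those of other macrophage genes. Csf1r lay nearest to Scube1, a secreted epidermal growth factor repeat protein, at 0.063, and Phf11c was at 0.069. For Cd163 the 3 nearest were Aebp1, Axl and Col3a1, at 0.043 to 0.088, of which Col3a1 is the fibrillar collagen chain used here as a fibroblast marker. Palld, Jam2 and Gjc1, an actin-binding, a junctional and a connexin gene, were nearest to Mrc1. For Arg1 they were the gene model Gm38560, Saa1, an acute-phase protein, and Hilpda, a hypoxia-induced lipid droplet protein, at 0.17 to 0.21. Saa1 stood at 955, 1579 and 632 CPM in GRwt and 382, 1075 and 531 CPM in GRdim. Siglec1 was nearest to Cxxc4, Rnase6 and Camk4, Folr2 to 6330537M06Rik, Ifi203-ps and Lair1, and Cx3cr1 to Tma16, Fgf2 and Tiam1. The nearest to Adgre1 were Ggct, Pvt1 and Cfap36, to Itgam Penk, Mamstr and Loxl3, and to Ly6c2 Mfng, Fancc and Il20rb. With 6 libraries and 15663 or more genes compared, such nearness is a description.

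To see each gene relative to transcripts used broadly by macrophages, its log2 level was set against the mean of Cd68, Fcgr1, Tyrobp, Fcer1g, Aif1, Ctss and Laptm5. This reference differed little between genotypes: relative to the GRwt mean it lay at 0.44, -0.27 and -0.17 in GRwt and -0.15, 0.23 and 0.042 in GRdim on the log2 scale, and 2 of its 7 genes were higher and 5 lower. Against it Arg1 was lower in GRdim, with a difference of -0.84 on the log2 scale, at 1.72 ± 0.546 in GRwt and 0.87 ± 0.498 in GRdim (SD, n = 3; exact two-sided permutation p = 0.2). The difference of Adgre1 was -0.35 (-1.38 ± 0.323 against -1.72 ± 0.363; exact permutation p = 0.4). Folr2 was higher by 0.63 and Siglec1 by 0.42, with exact permutation p of 0.3 and 0.6. The sizes moved with the libraries used: with 1 left out, the difference of Arg1 ran from -1.10 to -0.53, the latter without GRwt replicate 2, and that of Adgre1 from -0.54 without GRdim replicate 1 to -0.16 without GRwt replicate 3. That of Folr2 ran from 0.39 without GRwt replicate 2 to 1.03 without GRwt replicate 3, and was 0.19 with a pseudocount of 1 CPM in place of 0.1. For Csf1r the difference between genotypes was -0.017. Its ratio varied between libraries as much as its own log2 level, with SDs of 0.22 and 0.21 over the 6 libraries. The ratio varied less than the level only for Siglec1, with SDs of 0.67 and 0.72, and Arg1, with 0.66 and 0.67. For Mrc1 the SDs were 0.53 for the ratio and 0.36 for the level, and for Cd163 0.53 and 0.41. Genotypes overlapped for all 10 ratios, that of Ly6c2 included, which was higher by 0.32 in GRdim, and no p was below 0.2 in these 10 tests, where 0.1 is the smallest possible.

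**Figure D5:**
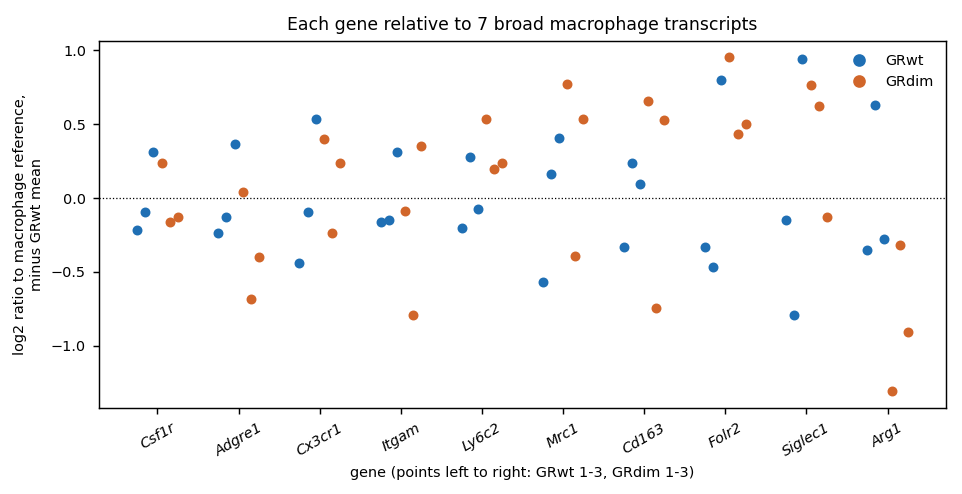
Log2 ratio of each gene to the mean of 7 broad macrophage transcripts, minus its GRwt mean (y axis), with 1 point per library (colour, genotype). The GRwt and GRdim points overlap for each gene, and Arg1 shows the widest difference of means, -0.84.

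The transcription factors of the lineage gave 9 higher and 6 lower of 15 tested. Cebpb, a factor of myeloid cells and of inflamed epithelium, was the one with an unadjusted p under 0.05, at 31.9, 23.3 and 25.6 CPM in GRwt and 16.7, 13.01 and 15.9 CPM in GRdim, with no overlap (log2 fold change -0.82, standard error 0.21, edgeR unadjusted p = 0.00347 and adjusted p = 0.9999). Non-overlap with GRdim lower was met by 3.57% of all genes tested. Maf and Zeb2, factors of resident macrophages that other cells also use, followed the order of Mrc1 in GRdim, at 29.8, 13.1 and 20.1 CPM and 40.5, 13.1 and 24.2 CPM in replicates 1, 2 and 3. Nr3c1, the gene of the altered receptor, stood at 55.3 ± 10.5 against 59.6 ± 18.1 CPM, a level that does not check the labels, since a receptor that fails to dimerize is still transcribed. Among 10 genes known to be induced by glucocorticoids, Cd163 included, 6 were higher and 4 lower. Sgk1, a kinase, and Per1, a clock gene, were higher in each GRdim library than in any GRwt library, at log2 fold changes of 0.75 and 0.45. Neither was called in edgeR (adjusted p = 0.9999 for both). Non-overlap with GRdim higher was met by 2.98% of all genes tested. The 4 lower genes were Dusp1, Fkbp5, Errfi1 and Ddit4, at log2 fold changes of -0.40, -0.31, -0.26 and -0.085.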

How the data were processed

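The authors deposited 1 table of raw read counts per gene, with positions on GRCm39 and 1 column per library. Per the submitters' processing notes they used bcl2fastq 2.20.0.422, Trim Galore, FastQC, MultiQC, STAR 2.7.8a, featureCounts of Subread 1.5.0 and DESeq2 1.40.2. Per the labels' protocols, libraries were made with a stranded mRNA kit. The annotation release and the strand setting of the counting are not given in the sources used here. Columns were matched to samples by library name.

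From the counts, GRdim was compared with GRwt by edgeR 4.0.16 in R 4.3.3, with TMM scaling, the default filter by group, robust quasi-likelihood F tests and Benjamini-Hochberg adjustment over all 18756 genes left. CPM are counts relative to the TMM-scaled library total, from the cpm function of edgeR. Standard errors are the log2 fold change divided by the square root of F, and intervals use the t distribution with the fit's degrees of freedom. For patterns the cpm function of edgeR gave log2 CPM with a prior count of 2, and ratios used log2 of CPM plus 0.1. Alternatives were DESeq2 1.42.0, limma-voom (limma 3.58.1) and those named in the closing section. The procedure was tested on simulated counts.

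The genes and lists were chosen with earlier results of these data known. Besides the 10 genes, the text names up to 4 genes of smallest p with at least 1 CPM from each list, direct partners of a gene, and the 3 genes of nearest pattern. Some genes that these rules and lists take in are not reported here, and the macrophage reference and the lists leave them out. Siglecf was named after its values were seen. Levels per length were also added after the data were seen.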

Additional observations from a re-analysis of the deposited data

How the results depend on the processing

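The number of genes called was 0 by edgeR and moved to 33 with DESeq2, 9 higher and 24 lower. It was 0 under the other settings: limma-voom with sample weights, size factors by relative log expression, all genes kept whatever their counts, the T as a covariate, the 4 libraries with no T, GRdim replicates 1 and 3 summed, the replicate block, and leaving out single libraries (0 to 0). None of the 10 genes was called under any of these. Of 140 alternative log2 fold changes of the 10 genes 127 kept their sign. Csf1r, at -9.88e-05, turned to 0.095 with limma-voom, 0.0013 with the T as a covariate and 0.024 among the 4 libraries with no T. With the replicate block Csf1r stood at 0.021 and no call changed. The numbers did not pair the samples: same-numbered libraries deviated from their group means with correlations of -0.39, 0.0303 and -0.432 across genes. Itgam turned to 0.0099 among the 4 libraries with no T, and Cd163 to -0.053 with limma-voom. With 1 library left out, Csf1r ran from -0.16 to 0.11, Cx3cr1 from -0.019 to 0.33 and Siglec1 from -0.043 to 0.73, each lowest without GRwt replicate 2, and Itgam from -0.44 to 0.079, highest without GRdim replicate 2. Of 99 alternative ratios to the macrophage reference 88 kept their sign. Among the 4 libraries with no T the ratio difference of Csf1r turned to 0.0097 and that of Cd163 to -0.062. With 1 library left out these differences ran from -0.15 to 0.14 for Csf1r, -0.11 to 0.59 for Cd163, -0.088 to 0.40 for Cx3cr1, 0.017 to 0.65 for Mrc1, 0.024 to 0.89 for Siglec1 and -0.44 to 0.13 for Itgam. The cause was not tested. Depth limits Folr2 and Cd163, whose counts were at most 20 and 31 per library.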

Other observations

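Dendritic, NK and T cell lists had no gene past the adjusted threshold in edgeR. Of 10 dendritic cell markers 8 were higher and 2 lower in GRdim, with a median log2 fold change of 0.23 and a summed level of 33.7 to 43.3 CPM in GRwt and 39.8 to 49.7 CPM in GRdim. Of 8 tested NK and T cell markers 7 were higher, with a median of 0.59 and a summed level of 16.1 to 17.2 CPM in GRwt and 19.5 to 22.3 CPM in GRdim. Cd3e, which encodes CD3 epsilon, stood at 1.53 to 1.93 CPM in GRwt and 2.61 to 2.94 CPM in GRdim, and Trac, the T cell receptor alpha constant gene, at 3.18 to 3.81 against 4.12 to 5.73 CPM. Neither passed in edgeR (unadjusted p = 0.0681 and 0.119). Cd3e and Trac did not overlap between genotypes, which with GRdim higher was met by 2.98% of all genes tested. Cd3d, which encodes another CD3 chain, was lower in GRdim, at 1.29 ± 0.408 against 1.09 ± 0.179 CPM. Cd4 stood at 7.95 ± 0.659 against 8.34 ± 2.05 CPM, with overlap.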
